A study of Rattus norvegicus with 82 samples.

Results

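The cadherin superfamily was examined as all probe sets whose annotated symbol starts with Cdh and a digit, Pcdh, Celsr or Clstn. The rule found 55 probe sets, of which 51 carried 1 symbol, and these stood for 38 genes of the 14217 named on the array. Each gene was read from its probe set with the highest mean. The 38 genes comprised 4 type I classical cadherins, 8 type II classical cadherins, 4 atypical cadherins, 2 flamingo-type Celsr cadherins, 3 calsyntenins, 1 delta-1 and 5 delta-2 protocadherins, 2 other protocadherins and 9 clustered protocadherins. The other 4 probe sets match the shared ends of the clustered Pcdha or Pcdhg genes, each with 13 to 15 symbols, and are described apart.

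Cadherins are calcium-dependent adhesion molecules that mostly bind their own kind on the neighbouring cell, and classical cadherins tie that contact to the actin cytoskeleton through catenins. In the brain, type II cadherins and delta-protocadherins are known for patchy expression that follows nuclei, layers and circuits. Clustered protocadherins are expressed in varied combinations by single neurons. Calsyntenins are synaptic members of the superfamily, and Celsr proteins act in planar polarity and axon guidance.

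The study measured total RNA of rat brain on 82 arrays from 7 dissected regions. The treatments were ADX, pADX and Sham, each sampled at PM and AM, and no strain, age or genotype is used here. ADX commonly abbreviates surgical removal of the adrenals (adrenalectomy), and a Sham operation is its usual control, while the sources used here do not give what the p stands for. Region was read from the abbreviation in each title and from descriptions. The source names contradict this for 4 of the regions, whose titles also open with another tissue. Titles of the septum, dorsal raphe and locus coeruleus open with frontal cortex, and those of the hypothalamus with left hippocampi. Grouped arrays numbered 80, with 12 each from the amygdala, dorsal raphe, hypothalamus, locus coeruleus and septum (4 ADX, 4 pADX and 4 Sham), 10 from the frontal cortex (3 ADX, 4 pADX and 3 Sham) and 10 from the hippocampus (4 ADX, 2 pADX and 4 Sham). Both hippocampal pADX arrays are labelled PM and none AM. The labels do not say whether arrays are separate animals, pools or repeats, so p-values measure only the spread between arrays, which may be technical. Values are log2 signals after quantile normalization, with a floor at 4, and the level of an array at the floor is known only as an upper limit.

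Most regions carried some of their defining markers, though not all. The hypothalamus was high in Avp (11.17), Oxt (10.95) and Pmch (12.19), but Pomc was at the floor there. The hippocampus was high in Prox1 (8.75) and Neurod6 (10.62). The dentate marker Dsp did not single it out (4.44, against 4.65 in the amygdala). Nor did the pyramidal marker Tbr1 (5.1, against 6.53 in the frontal cortex). The dorsal raphe had Slc6a4, the serotonin transporter, at 10.66, but the locus coeruleus arrays also held it at 9.61 beside Dbh, the enzyme of noradrenaline synthesis, at 8.34. Septal arrays held the septal marker Zic1 at 6.13 and also the pyramidal cell marker Neurod6 at 8.62. Their Zic2, a further septal marker, was 5.41, against 5.49 in the hypothalamus. The striatal markers Drd1 (8.69), Ppp1r1b (8.77) and Adora2a (6.93) were each higher in septal arrays than in any other region. The part of striatal tissue in the septal values was not tested. Amygdala arrays held Avp at 7.4. In the frontal cortex, Sham PM replicate 2 and Sham AM replicate 2 stood apart, with a mean correlation with the other 9 arrays of 0.966 and 0.974, against 0.978 to 0.981 for the remaining 8. Their ratios of 3' to 5' beta-actin signal, 3.02 and 2.78, lay within the frontal range of 2.73 to 3.93. These arrays were low in several members: Cdh12 was 5.53 and 5.67 on them, while the other frontal arrays had 6.90 to 7.15. The beta-actin ratio also differed between regions. It was 1.73 to 2.95 in the hippocampus, 3.12 to 6.03 in the dorsal raphe and 3.07 to 3.94 in the locus coeruleus. Hippocampal arrays thus overlapped neither of the other 2 regions in this ratio. A fit with it as a covariate is among the alternatives described below. In bulk tissue, fewer cells of a type and less RNA per cell cannot be told apart.

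Most of these genes differed among regions. Of the 38 members, 33 differed among regions at a Benjamini-Hochberg adjusted p of 0.05 by limma's moderated F test, which is 86.8%, against a background of 65.3% of all 31042 probe sets tested. The 5 that did not pass were Cdh16 and Cdh17, atypical cadherins known from kidney and gut, and the clustered Pcdhb6, Pcdhb21 and Pcdhb22. All of these but Pcdhb6 were at the floor on most arrays, with Cdh16 and Pcdhb21 at it on all 80. The 33 members spanned a median of 0.95 log2 units between their highest and lowest regional means, against 0.66 for all probe sets that passed, and 15 of them (45.5%) spanned more than 1, against 24.3%. A further count was small: 1 member, Clstn2, was highest in a single region by 1 log2 unit over every other, against a background of 0.747%, and 0 members were lowest in one by that rule, against 0.151%.

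**Figure D1:**
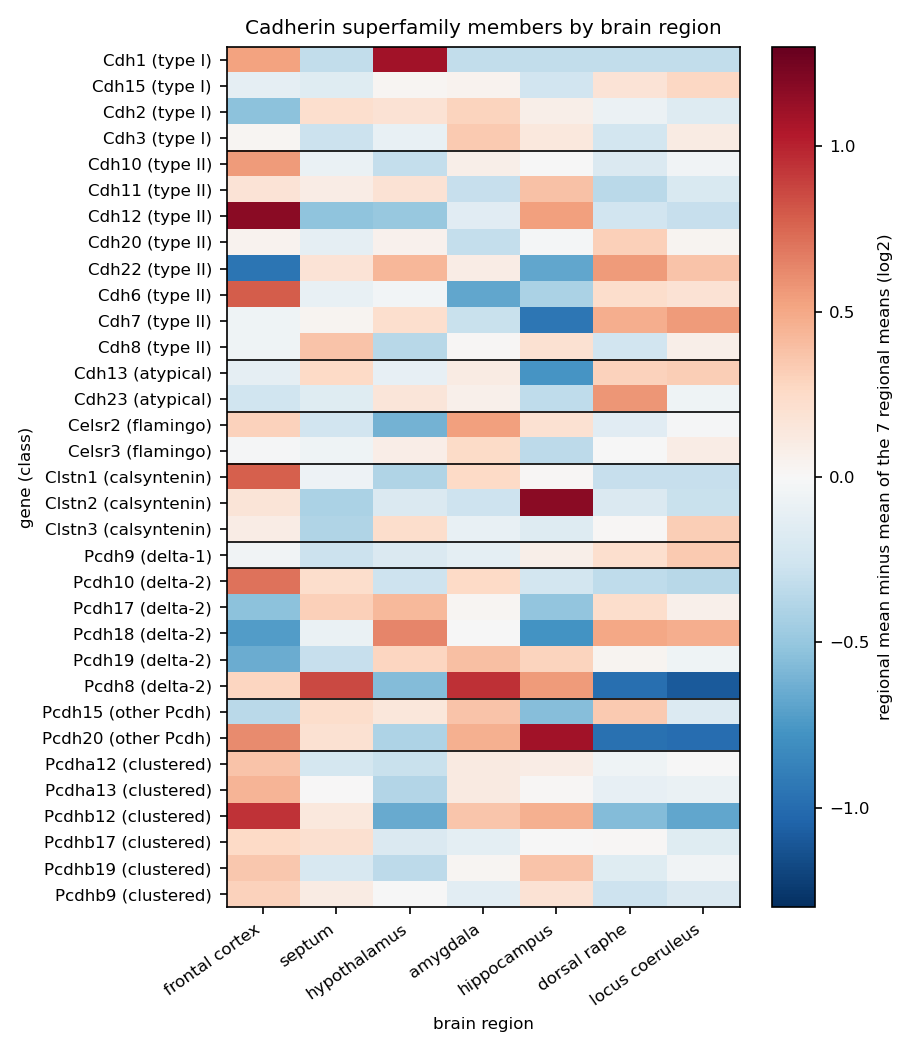
Each row is 1 of the 33 members that differed among regions, grouped by class, and each column a brain region; colour gives the regional mean minus the mean of the 7 regional means in log2 units. Clstn2 stands out in the hippocampus, Cdh12 and Pcdhb12 in the frontal cortex, and Pcdh8 and Pcdh20 are low in the dorsal raphe and locus coeruleus.

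The fixed naming rule gave only Clstn2 for the regional pattern. The other genes described by region are those with the widest ranges and their classmates, chosen after their values were seen. RefSeq promoters (GRCr8, 250 bases before to 50 after the gene start) were at hand for 26 of the 38 members. Those of Clstn2 (chr8:107516353-107516652, minus strand), Pcdh20 (chr15:70840249-70840548, minus strand) and Pcdh8 (chr15:61612041-61612340, minus strand) are shown because these genes carry the single-region call and the widest ranges.
Clstn2: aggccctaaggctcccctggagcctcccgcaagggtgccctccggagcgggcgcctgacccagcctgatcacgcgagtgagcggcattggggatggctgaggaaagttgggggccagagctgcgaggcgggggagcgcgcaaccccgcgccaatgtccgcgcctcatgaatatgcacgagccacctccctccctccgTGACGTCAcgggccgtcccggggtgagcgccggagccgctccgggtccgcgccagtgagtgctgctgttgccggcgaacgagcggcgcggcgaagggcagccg
Pcdh20: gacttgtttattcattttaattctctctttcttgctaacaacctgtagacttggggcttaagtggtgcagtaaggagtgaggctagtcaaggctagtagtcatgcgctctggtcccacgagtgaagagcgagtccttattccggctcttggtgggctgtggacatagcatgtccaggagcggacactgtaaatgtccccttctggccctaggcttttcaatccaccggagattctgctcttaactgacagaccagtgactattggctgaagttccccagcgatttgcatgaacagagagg
Pcdh8: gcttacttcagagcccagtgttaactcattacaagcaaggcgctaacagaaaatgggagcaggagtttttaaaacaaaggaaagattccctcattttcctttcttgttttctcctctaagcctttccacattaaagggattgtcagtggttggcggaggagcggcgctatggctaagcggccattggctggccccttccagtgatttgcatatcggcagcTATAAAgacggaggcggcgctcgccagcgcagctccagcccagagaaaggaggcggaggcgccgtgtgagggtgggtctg
Capitals mark a cyclic AMP response element (TGACGTCA, its own reverse complement) in Clstn2 and a TATA box (TATAAA, searched on both strands) in Pcdh8. The Pcdh20 promoter held neither motif. The first motif occurred in 1.83% of the 33469 promoters in the table and, among members, in Clstn2 and Clstn3. TATAAA occurred in 14.2% of all promoters and in Pcdh8 alone among the 26. The palindromic consensus of the glucocorticoid response element was in 0.0149% of all promoters and in 0 of the 26. GGTGGCGCT, which contains the CGCT box known from clustered protocadherin promoters, was in 15 of the 35 clustered protocadherin promoters against 0.457% of all, and in 6 of the 26, namely Pcdhb6, Pcdhb9, Pcdhb12, Pcdhb19, Pcdhb21 and Cdh15. Motifs were chosen after the promoters had been read, and a match is a description of these letters only.

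Among the calsyntenins, Clstn2, a postsynaptic protein, was the hippocampal member. Its log2 signal in the 10 hippocampal arrays had a lowest value of 6.16, a median of 6.48 and a highest of 6.99. In the frontal cortex, the next region, these were 4.68, 5.44 and 6.16, and in the septum, the lowest, 4, 4.83 and 5.63. The lowest hippocampal array thus met the highest frontal one at 6.16, and no array of the other 5 regions reached it. The hippocampus exceeded the frontal cortex 2.02-fold (log2 difference 1.02, adjusted p = 4.61e-06 for this contrast in limma) and the septum 3.03-fold. Below the hippocampus came the frontal cortex, dorsal raphe, hypothalamus, amygdala, locus coeruleus and septum, and no contrast between neighbours in that order passed. The single-region call is close to its threshold: it was lost in 5 of the 12 fits that left out 1 combination of treatment, time and replicate, with the difference itself past the F test each time.

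Clstn1, the kinesin-linked cargo adaptor of the family, had another pattern. It was highest in the frontal cortex, with a lowest value of 11.44, a median of 11.58 and a highest of 11.79, and lowest in the hypothalamus, with 10.27, 10.41 and 10.54. No frontal array overlapped any other region, as the highest amygdala array had 11.31. The frontal cortex exceeded the hypothalamus 2.29-fold (log2 difference 1.19, limma adjusted p = 8.5e-25) and the amygdala by 0.54 log2 units (adjusted p = 7.09e-10). Clstn3, which promotes synapse formation through neurexins, differed least of the 3, with an F test adjusted p of 0.0266.

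Among the protocadherins outside the clusters, Pcdh20 had the widest range of all members. Its values ran from a lowest of 8.83 through a median of 9.17 to a highest of 9.48 in the hippocampus, against 6.86, 7.08 and 7.49 in the locus coeruleus. The hippocampal and frontal arrays (8.25, 8.76 and 8.86) barely overlapped, and the dorsal raphe (6.87, 7.06 and 7.57) covered the same span as the locus coeruleus. Hippocampal signal was 4.27-fold that of the locus coeruleus (log2 difference 2.09, limma adjusted p = 2.05e-34). The order was hippocampus, frontal cortex, amygdala, septum, hypothalamus, dorsal raphe and locus coeruleus, in which the contrasts of the frontal cortex with the amygdala (difference 0.14, adjusted p = 0.18) and of the dorsal raphe with the locus coeruleus did not pass. A separate Pcdh20 probe set gave the same profile, with r = 0.995 over the 7 regional means and a range of 2.18.

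Pcdh8, the delta-2 protocadherin known as arcadlin, is induced by activity and drives internalization of N-cadherin at rat synapses. It was highest in the amygdala, with 7.41, 7.71 and 8.21 as lowest, median and highest values, and in the septum, with 7.46, 7.64 and 8.06. In the locus coeruleus it had 5.09, 5.73 and 6, and in the dorsal raphe 5.09, 5.86 and 6.26. Every array of the amygdala, septum, hippocampus and frontal cortex, down to 6.76, lay above every array of the dorsal raphe and locus coeruleus, up to 6.26. The amygdala exceeded the locus coeruleus 4.14-fold (log2 difference 2.05, limma adjusted p = 7.57e-26), and its contrast with the septum did not pass (difference 0.10, adjusted p = 0.609).

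The other delta-2 protocadherins split. Pcdh10, which guides axons of the forebrain in mice, was highest in the frontal cortex (mean 7.79, SD 0.22, n = 10) and lowest in the locus coeruleus (6.73, SD 0.30, n = 12), a 2.03-fold difference (limma adjusted p = 2.83e-13). Pcdh18 was instead highest in the hypothalamus, with 7.31, 7.59 and 8.15, and lowest in the hippocampus, with 5.86, 6.2 and 6.8. These groups did not overlap, and the hypothalamus was 2.62-fold higher (adjusted p = 4.14e-20). Its contrast with the dorsal raphe, next in order, did not pass (difference 0.12, adjusted p = 0.382). Pcdh19, an X-linked gene whose human form is mutated in epilepsy, was 2.02-fold higher in the amygdala (mean 8.80, SD 0.14, n = 12) than in the frontal cortex (7.77, SD 0.15, n = 10). Pcdh17 was highest in the hypothalamus (mean 9.64, SD 0.13, n = 12) and lowest in the frontal cortex (8.68, SD 0.40, n = 10), a 1.95-fold difference. Neither gene's highest region passed the limma contrast with its next. These were the hypothalamus for Pcdh19 (adjusted p = 0.165) and the septum for Pcdh17 (0.316). Without the 2 frontal arrays that stood apart, the frontal mean of Pcdh17 was 8.86 (SD 0.08, n = 8) and its lowest region became the hippocampus. The 2 other Pcdh17 probe sets were highest in the locus coeruleus (9.23 and 9.05) and lowest in the hippocampus (8.22 on both). Their r with the first over 7 regional means was 0.88 and 0.92. Pcdh9, the delta-1 member, had its highest mean in the locus coeruleus (10.71) and its lowest in the septum (10.09), with no contrast between neighbouring regions past the test.

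**Figure D2:**
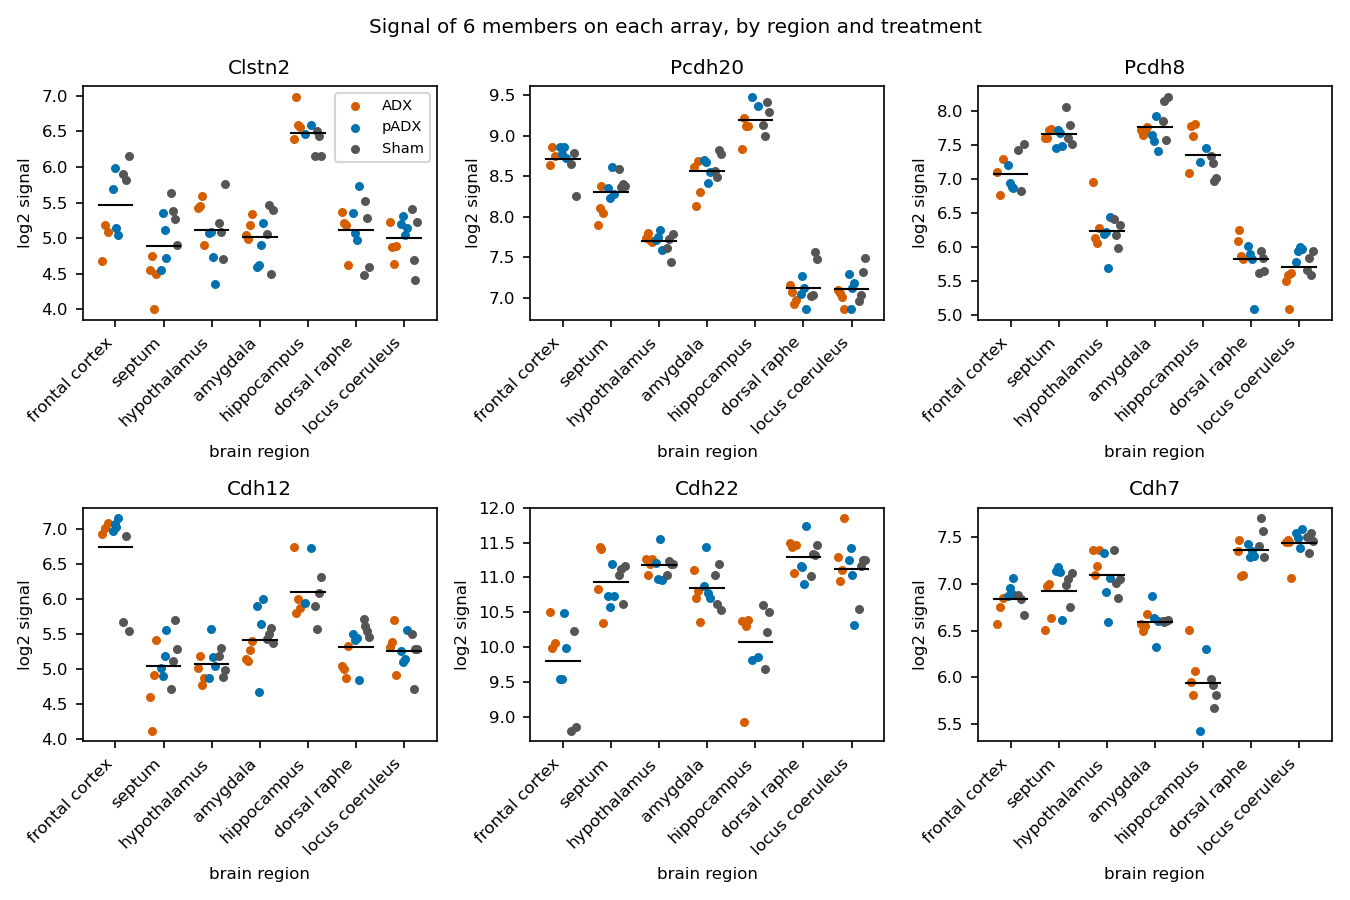
Each panel plots 1 gene, with the log2 signal of every grouped array by region and colour for ADX, pADX and Sham; black lines are regional means. Hippocampal Clstn2 points lie between 6.16 and 6.99, and 2 frontal Sham points of Cdh12, at 5.53 and 5.67, lie far below the other frontal points.

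All 8 type II classical cadherins, which sort neurons by their differing adhesive preferences, passed the regional test, against 65.3% of all probe sets. Their median range was 1.16, against 0.66 for all probe sets that passed. Neither trait was theirs alone. Every member of the other classes also passed, except among the atypical and clustered ones. Calsyntenins (1.19) and the other protocadherins (1.52) had wider median ranges. The type II genes led in different regions. Cdh12 was highest in the frontal cortex, where its lowest value was 5.53, its median 6.99 and its highest 7.15, and lowest in the septum, with 4.11, 5.06 and 5.69. Apart from the frontal Sham replicate 2 arrays, all frontal values exceeded every array of every other region. The frontal cortex was 3.23-fold above the septum (log2 difference 1.69, limma adjusted p = 1.1e-13). Without those arrays the frontal mean of Cdh12 was 7.02 (SD 0.08, n = 8), where with them it was 6.73 (SD 0.60, n = 10).

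Cdh7 had another order, highest in the locus coeruleus, with 7.06, 7.46 and 7.58, and lowest in the hippocampus, with 5.43, 5.93 and 6.51. The 2 regions did not overlap, and the difference was 2.78-fold (limma adjusted p = 1.13e-23). The contrast of the locus coeruleus with the dorsal raphe, next in order, did not pass (difference 0.08, adjusted p = 0.71). Cdh6, a marker of cortical areas in the developing mouse, was highest in the frontal cortex, with 5.57, 5.73 and 5.96, and lowest in the amygdala, with 4, 4.07 and 4.89. Because some amygdala arrays were at the floor, the frontal cortex was at least 2.74-fold higher (adjusted p = 3.39e-13).

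Cdh22 was abundant throughout and highest in the dorsal raphe, with 10.91, 11.33 and 11.74, against 8.80, 9.99 and 10.50 in the frontal cortex, 2.80-fold lower. Its regional order is uncertain, since its other probe set was unrelated (r = 0.02 over 7 regional means) and led in the amygdala. Without the 2 frontal Sham arrays, at 8.80 and 8.86, its lowest region became the hippocampus. The remaining type II genes had narrower ranges. Cdh10 led in the frontal cortex (1.82-fold over the hypothalamus) and Cdh11 in the hippocampus (1.65-fold over the dorsal raphe). Cdh8 led in the septum (1.65-fold over the hypothalamus) and Cdh20 in the dorsal raphe (1.53-fold over the amygdala). Each of these differences passed the limma contrast. The leads of Cdh8 and Cdh20 over the next region did not (adjusted p = 0.253 and 0.0973). A second Cdh11 probe set also led in the hippocampus, with a wider range of 1.49 and r = 0.80, while a dim one at a mean of 4.31 had r = -0.63.

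Of the type I classical cadherins, Cdh2, the N-cadherin of neurons and synapses, was highest in the amygdala (mean 9.37, SD 0.16, n = 12). Its lowest mean was 8.54 (SD 0.23, n = 10) in the frontal cortex, 1.79-fold lower (limma adjusted p = 1.27e-16). Another Cdh2 probe set was also lowest in the frontal cortex (7.90) but highest in the hippocampus (8.46), with r = 0.84. A dim Cdh2 probe set was at the floor on 67 arrays. Cdh1, the E-cadherin of epithelia, was at the floor on 59 of the 80 arrays. It was above it only in the hypothalamus, with 4, 5.48 and 6.17, and the frontal cortex, with 4.16, 4.84 and 5.38. The hypothalamus was at least 2.66-fold and the frontal cortex at least 1.75-fold above the septum, where all 12 arrays were at the floor.

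The summed level of 5 meningeal markers (Dcn, Col1a1, Col1a2, Lum and Igf2) also peaked in the hypothalamus, where it ran from 9.81 to 11.17, and it was 9.37 to 9.79 in the frontal cortex. The hippocampus had a sum of 9.32 to 10.10 and Cdh1 at the floor on all 10 arrays, and the remaining regions ran from 8.08 to 9.78. None of the 5 markers was at the floor as a regional mean. Whether meningeal tissue has a part in the Cdh1 values was not tested. A second Cdh1 probe set was at the floor on 79 of 80 arrays.

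**Figure D3:**
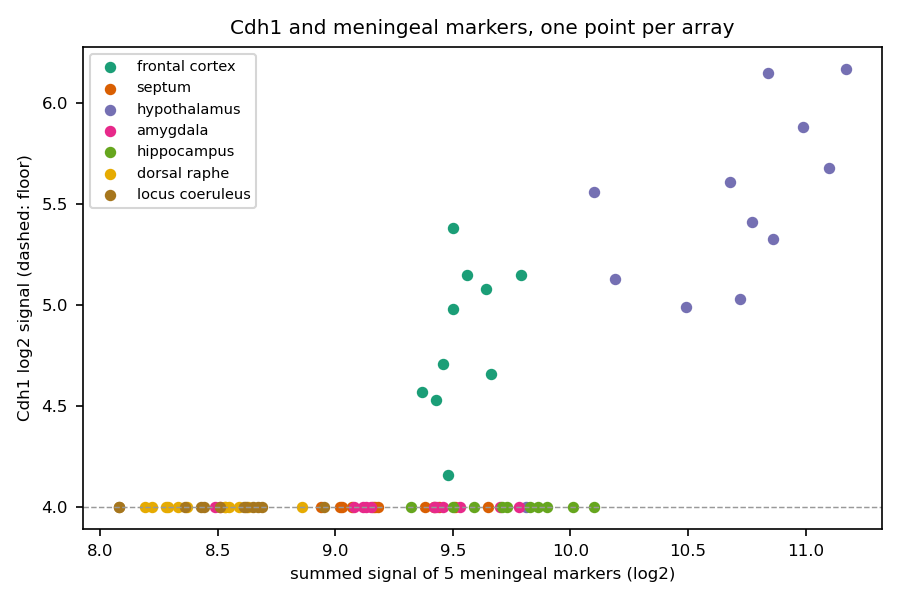
Each point is 1 array, coloured by region, with the log2 of the summed signal of 5 meningeal markers on the x axis and Cdh1 log2 signal on the y axis; the dashed line is the floor. Cdh1 is above the floor in the frontal cortex and hypothalamus only, and hippocampal arrays with sums up to 10.10 lie on the floor.

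Atypical members were led by Cdh13, the T-cadherin that is anchored by a lipid and lacks a cytoplasmic tail. It was lowest in the hippocampus, with 7.56, 8.17 and 8.40, while the locus coeruleus had 8.88, 9.22 and 9.39, so that the 2 did not overlap (2.15-fold, limma adjusted p = 7.94e-21). Its 2 other probe sets gave profiles with r of 0.997 and 0.975. Cdh23, known from the tip links of hair cells, was near the floor and highest in the dorsal raphe (mean 5, SD 0.35, n = 12), at least 1.84-fold above the hippocampus. Its tip link partner Pcdh15 was 1.93-fold higher in the amygdala than in the hippocampus (adjusted p = 0.000958). Celsr2 was 2.22-fold higher in the amygdala than in the hypothalamus (adjusted p = 9.36e-09), and Celsr3 1.54-fold higher in the amygdala than in the hippocampus (adjusted p = 2.4e-07).

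Of the 9 clustered protocadherins, 6 passed the regional test, a share near the 65.3% of all probe sets. Of these 6, 5 had their highest mean in the frontal cortex, where 19.6% of all probe sets that passed had theirs. The frontal lead over the next region passed in limma for Pcdhb12 and Pcdha13. It did not for Pcdhb17 (adjusted p = 0.91), Pcdhb9 (0.682) or Pcdha12 (0.26). Pcdhb17 was at the floor on 19 arrays and Pcdha12 on 14. Pcdhb12 had the widest range, with 5.36, 5.87 and 6.21 in the frontal cortex against 4, 4.25 and 4.55 in the locus coeruleus, at least 3.06-fold (limma adjusted p = 6.98e-22). These groups did not overlap. A second, dim Pcdhb12 probe set disagreed (r = -0.44). Pcdha13 was 1.79-fold higher in the frontal cortex than in the hypothalamus (adjusted p = 1.58e-08), and Pcdhb19 was 1.66-fold higher in the hippocampus than in the hypothalamus (adjusted p = 1.19e-07). Probe sets of near-identical clustered genes can share target, so the gene behind each is uncertain.

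The 4 probe sets of several clustered genes all passed the regional test, against 65.3% of all probe sets. Those of the Pcdha cluster had means of 9.41 and 9.06 in the frontal cortex against 8.42 and 8.43 in the hypothalamus. The brighter of the Pcdhg cluster had 10.37 in the amygdala against 9.44 in the dorsal raphe. The profiles of the Pcdha pair had r = 0.82 and those of the Pcdhg pair r = 0.84 over 7 regional means.

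Across members, frontal cortex was the leading region of 10 of 33 (30.3%, against 19.6% of all probe sets that passed) and amygdala of 7 (21.2% against 9.68%). These shares count the highest mean alone. No amygdala lead passed the limma contrast with the next region. All frontal leads passed it except those of Pcdha12, Pcdhb9 and Pcdhb17. Pairs of regions differed in 13 to 26 of the 38 members, where 23% to 44.4% of all probe sets did, except the dorsal raphe and locus coeruleus, which differed in 3 (7.89%), against a background of 6.51%. The 3 were Cdh23, higher in the dorsal raphe, and Cdh8 and Cdh11, higher in the locus coeruleus. As a description, profiles were compared over 7 regional means, which share arrays and dissection. Only members past the regional test and never at the floor were compared. The most alike were Cdh10 with Clstn1 and with Pcdha13 (r = 0.96 for both), then Cdh22 with Pcdh18 and Clstn1 with Pcdha13 (0.95 for both). Pcdh20 with Pcdh8 had 0.87, below several other pairs. The most opposed were Pcdh17 with Pcdhb19 (-0.99), then Cdh12 with Cdh22 and with Pcdh17 (-0.94 for both) and Cdh7 with Pcdh20 (-0.93). The Cdh22 pairs hold for its brighter probe set only, as its other one was unrelated (r = 0.02). Frontal means of Cdh12, Cdh22 and Pcdh17 include the 2 Sham arrays that stood apart. The summed level of 7 oligodendrocyte markers was lowest in the frontal cortex (median 13.34) and amygdala (13.38) and 14.13 to 14.51 elsewhere. Over the 7 regional values it ran against Clstn1 and Pcdh10 (r = -0.86 for both), and its part in these patterns was not tested.

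Treatment was compared next, on log2 signals averaged over 5 regions into 12 units of treatment, time and replicate. In ADX against Sham, 0 of the 38 members passed an adjusted p of 0.05 in limma, against 0.132% of all probe sets. At an unadjusted p of 0.05 there were 3 members (7.89%), against 9.02%. The same test gave 0 in pADX against Sham (background 0.00644%; 4 members unadjusted, 10.5% against 7.7%) and 0 in ADX against pADX (background 0.0483%; 3 unadjusted, 7.89% against 8.02%). The pADX and ADX comparisons share their Sham units. The median member change was 0.01 in ADX, against 0 for all probe sets. Of the 33 members not mostly at the floor, 32 had a 95% interval for ADX against Sham that lay within 0.5 log2 units of 0. The 4 ADX units lay outside the range of the 4 Sham units for 2 members (5.26%), against 3.76% of all probe sets.

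Cdh12 came closest. Its units were 5.01, 4.95, 5.10 and 5.18 in ADX, and 5.30, 5.13, 5.31 and 5.39 in pADX, against 5.30, 5.24, 5.39 and 5.27 in Sham. All ADX units lay below all Sham units, while pADX units overlapped Sham. The ADX change was -0.24 log2 units (SE 0.05, limma adjusted p = 0.186), and in ADX against pADX it was -0.22 (SE 0.05, adjusted p = 0.323). Cdh20, a type II cadherin, had 5.82, 5.83, 5.79 and 5.91 in ADX against 5.77, 5.70, 5.64 and 5.58 in Sham, again without overlap, a change of 0.17 (SE 0.05, adjusted p = 0.332).

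Pcdh20 averaged 7.66 (SD 0.07, n = 4 units) in ADX and 7.84 (SD 0.12, n = 4) in Sham, with 1 ADX unit inside the Sham range at 7.74. The change was -0.18 (SE 0.06, limma adjusted p = 0.403) and -0.16 on its other probe set. The other named changes in ADX were 0.15 for Pcdhb19, 0.12 for Cdh15 and 0.05 for Cdh10. In pADX against Sham they were 0.30 for Cdh3 (SE 0.10, adjusted p = 0.531), 0.15 for Cdh15, 0.13 for Pcdhb19, 0.09 for Cdh17, which was near the floor, -0.15 for Pcdh19 (SE 0.06, adjusted p = 0.613) and -0.13 for Cdh8. Cdh17, Pcdh17 and Pcdha12 were also named for ADX against pADX, at -0.05, 0.09 and -0.18. By class, the median ADX change lay between -0.09 and 0.07, and no class had a member that passed.

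**Figure D4:**
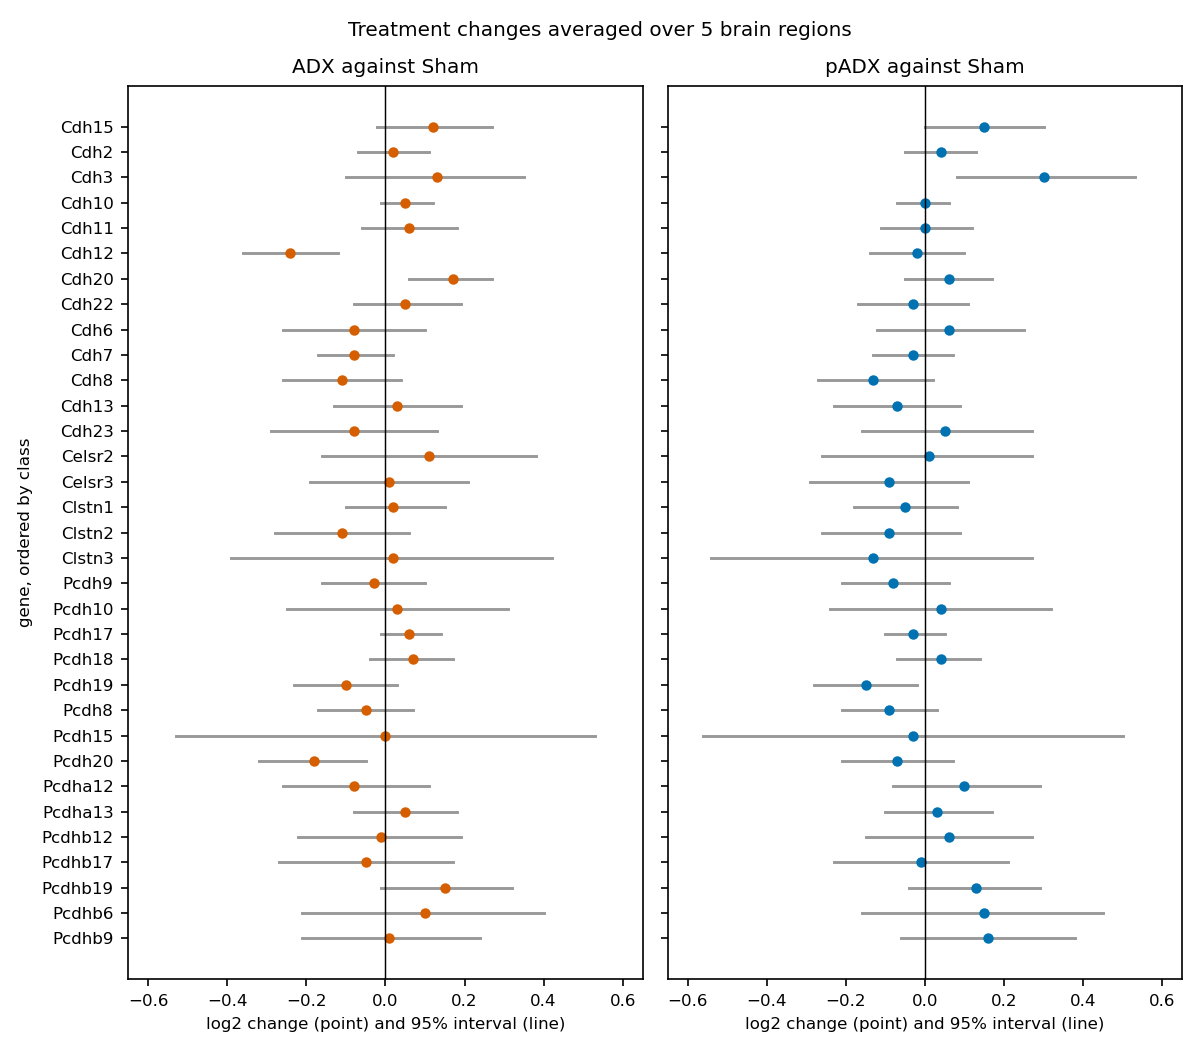
Points are log2 changes for ADX against Sham (left) and pADX against Sham (right) averaged over 5 regions, with lines for the 95% interval, for the 33 members not mostly at the floor. Cdh12 at -0.24, Pcdh20 at -0.18 and Cdh20 at 0.17 have the ADX intervals of lowest p, and none passed adjustment.

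The time of day gave a similar count. In PM against AM, 0 of 38 members passed in limma (background 0.00966%), with 6 (15.8%) at an unadjusted p of 0.05, against 10.4%. Within Sham, 0 passed (background 0.0773%; 2 unadjusted, 5.26% against 9.3%). Cdh10, a type II cadherin, was nearest: its 6 PM units averaged 8.74 (SD 0.02) and its 6 AM units 8.63 (SD 0.06). The groups overlapped, since the highest AM unit had 8.73 and the lowest PM unit 8.71. The change was 0.11 (SE 0.02, adjusted p = 0.187), and within Sham it was 0.16 (SE 0.03, adjusted p = 0.255). The other named PM changes were 0.15 for Pcdha12, 0.12 for Cdh12, -0.12 for Pcdh18, -0.11 for Cdh7 and -0.11 for Pcdh8. Within Sham they were 0.20 for Pcdh20, -0.13 for Cdh20, -0.19 for Cdh6, -0.19 for Clstn2 and -0.27 for Pcdhb17.

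Within single regions, 0 of 266 pairs of member and region passed in ADX against Sham (background 0.011%; 24 pairs or 9.02% unadjusted, against 8.1%) and 0 of 266 in pADX against Sham (background 0.00322%; 20 pairs or 7.52% unadjusted, against 6.27%). In the 6 regions with 4 ADX and 4 Sham arrays, the groups did not overlap in 13 of 228 pairs (5.7%), against 3.5% of all probe sets. No single region therefore held a member whose change passed adjustment, and the values nearest to it follow.

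Pcdhb6, a clustered protocadherin, had 5.67, 5.41, 5.16 and 5.22 in hippocampal ADX arrays and 5.05 and 5.11 in pADX arrays, against 4.39, 4, 4.27 and 4.63 in Sham arrays. All ADX and pADX values lay above all Sham values. The ADX change was 1.04 (SE 0.17, limma adjusted p = 0.205) and the pADX change 0.78 (SE 0.22, adjusted p = 0.803). The lowest Sham array was at the floor, so its own level is known only as an upper limit. With a floor of 32 the ADX change was 0.36. Hippocampal ADX arrays had been deposited with means, trimmed by 2% at each end, of 34.1 to 171. Those of pADX arrays were 77.3 to 98.8 and those of Sham arrays 85.1 to 99.2. The part of this scaling in hippocampal changes was not tested.

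Pcdh9 in the septum had 10.04, 10.02, 9.91 and 10.13 in ADX and 9.89, 10.03, 9.9 and 10 in pADX, against 10.34, 10.30, 10.21 and 10.26 in Sham. Sham arrays were the highest without overlap. The changes were -0.25 (SE 0.05, limma adjusted p = 0.164) and -0.32 (SE 0.05, adjusted p = 0.442). The other Pcdh9 probe set gave -0.24 (SE 0.16) and -0.15 (SE 0.16).

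Septal Clstn2 had 4.55, 4.75, 4 and 4.50 in ADX against 5.63, 5.38, 5.27 and 4.91 in Sham. The groups did not overlap, and the change was -0.85 (SE 0.21, limma adjusted p = 0.217). The ADX array at 4 was at the floor, so its level is known only as an upper limit. Under the alternatives other than leaving out an array, the change ran from -0.86 to -0.32. Cdh6 in the locus coeruleus had 4.77, 5.05, 4.78 and 5.16 in ADX and 4.82, 5.13, 4.80 and 5.28 in pADX, against 5.38, 5.61, 5.30 and 5.46 in Sham. Sham was again highest without overlap, and the ADX change was -0.50 (SE 0.14, adjusted p = 0.58). There, 4 of 4 Sham, 3 of 4 pADX and 0 of 4 ADX arrays had been deposited at the common scale, whose part in the value was not tested.

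Hippocampal Cdh10 had an ADX change of 0.34 (SE 0.07, limma adjusted p = 0.332) and Cdh12 in the dorsal raphe one of -0.53 (SE 0.16, adjusted p = 0.473). Of the pADX changes, Cdh3 in the hypothalamus had 0.74, Clstn3 in the amygdala -1.18 and Cdh2 in the septum -0.24. A pair of other Cdh2 probe sets gave -0.01 and 0.15 in the septum.

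In the frontal cortex, Cdh12 had 6.92, 7.01 and 7.08 in ADX and 6.97, 7.06, 7.03 and 7.15 in pADX, against 5.67, 6.90 and 5.53 in Sham. The pADX change of 1.06 (SE 0.30, limma adjusted p = 0.356) rested on the Sham arrays that stood apart. With only those kept as Sham, Cdh12 and Pcdh17 passed in both treatments. In that setting 770 of all 31042 probe sets passed in ADX and 774 in pADX, against 5 and 0 with every Sham array. With them left out, the pADX change of Cdh12 against the Sham array that remained was 0.20.

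**Figure D5:**
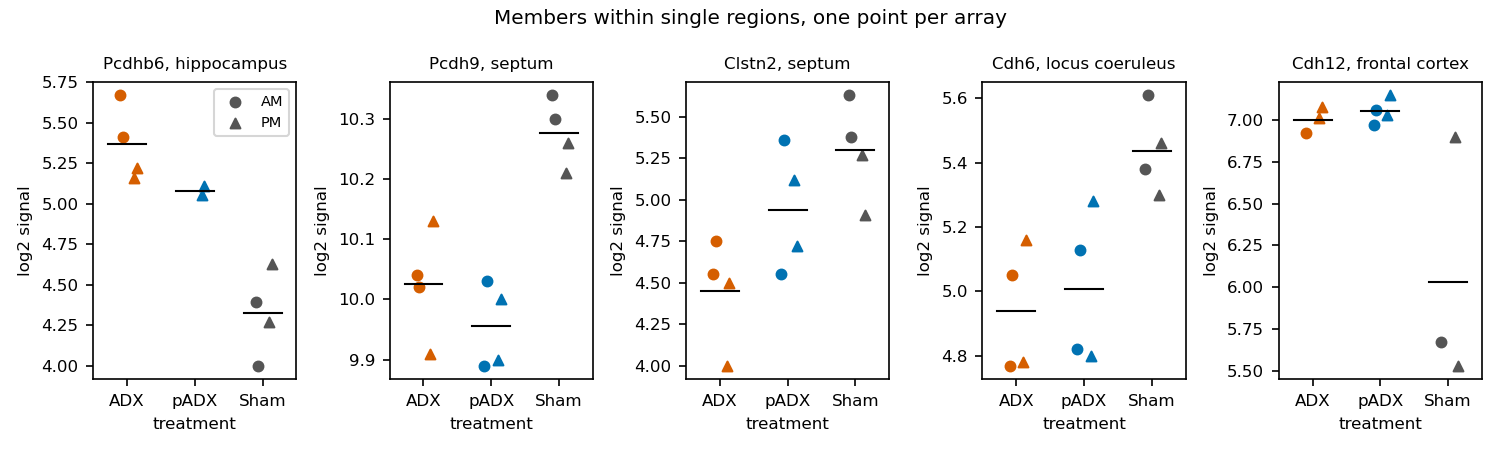
Each panel shows 1 member in 1 region, with the log2 signal of every array for ADX, pADX and Sham from left to right; circles are AM, triangles PM and lines group means. Hippocampal Pcdhb6 Sham arrays lie at or below 4.63 and the others at or above 5.05, and 2 frontal Sham arrays of Cdh12 lie at 5.53 and 5.67.

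The region dependence of the ADX change was examined with a limma F test of the treatment by region terms. It passed for 0 of 38 members, against 2.44% of all probe sets, with 10 (26.3%) at an unadjusted p of 0.05, against 16.4%. The lowest adjusted p was that of Clstn2 (0.0648), whose ADX change was -0.97 in the frontal cortex and -0.85 in the septum but 0.32 in the hippocampus. Pcdh18 followed (0.0776), with 0.67 in the frontal cortex and -0.23 in the septum, and then Cdh12 (0.0955), with 0.97 in the frontal cortex and -0.53 in the dorsal raphe. Pcdh17 (0.182), Cdh8 (0.213) and Pcdh8 (0.214) were further away. Without the 2 frontal Sham arrays that stood apart the lowest adjusted p of any member was 0.234. The count of members passing moved between 0 and 4 under other settings, and where it was 4, 2250 of all 31042 probe sets passed.

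Genes that work with cadherins were followed as a list of 41 measured partners: catenins, nectins and afadin, planar polarity genes, Fat and Dachsous cadherins, the cleavage enzymes, protocadherin effectors and calsyntenin partners. Of these, 37 passed the regional test, against 65.3% of all probe sets. Ptk2b, a kinase that clustered protocadherins inhibit in mice, averaged 8.04 in the hippocampus and was near the floor in the dorsal raphe at 4.07, and Wasf1, of the WAVE complex that several protocadherins bind, averaged 10.17 in the hippocampus and 8.35 in the dorsal raphe. Beta-catenin (Ctnnb1) had regional means between 11.97 and 12.47. In limma, 0 of the 41 partners passed in ADX against Sham, in pADX against Sham or in PM against AM. At an unadjusted p of 0.05 there were 3 in ADX, against 9.02% of all probe sets, 2 in pADX, against 7.7%, and 1 in PM, against 10.4%.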

How the data were processed

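The deposited values are linear intensities, 1 per probe set and array, as the distribution of the authors' table shows. Nothing in the labels or the table names the scanner software or the scaling. In 45 of 82 arrays the mean trimmed by 2% at each end was 150.04 to 150.05, and in the rest it was 34.1 to 171. Values were therefore quantile normalized over all arrays, floored at 16 and put on the log2 scale, which left 27.5% at the floor. Without the array's 57 control probe sets, 31042 remained and were tested with no filter.

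limma 3.58.1 in R 4.3.3 (eBayes with a trend) gave all adjusted p-values, by Benjamini-Hochberg over all probe sets. Regions were compared over 80 grouped arrays by a moderated F test with the 12 combinations of treatment, time and replicate as a block, and by 21 pairwise contrasts. Treatment and time were additive terms over 12 units, each the mean log2 signal of 5 regions, or over the arrays of 1 region. The fits were tested on simulated data. Members and lists were chosen with earlier results of these data known. Genes named per treatment or time comparison are those that passed, filled up to 6 by the lowest unadjusted p. Symbols are those of the platform annotation, and 36 of the 38 matched RefSeq's gene table (GRCr8). The 2 frontal arrays without a treatment label entered no comparison. Alternatives covered the normalization, the floor, a filter on dim probe sets, the probe set, the regions used, the blocks and leaving out each replicate.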

Additional observations from a re-analysis of the deposited data

Results flagged for a closer look

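Of 120 groups of members' values examined, 10 held a value whose gap to the nearest other exceeded Dixon's critical value, where chance flags about 1 in 20. In the frontal cortex, Sham PM replicate 2, which stood apart, was low in Cdh10 (8.96, against 9.26 to 9.56 on the other arrays) and in Pcdh20 (8.25, against 8.64 to 8.86). Frontal pADX AM replicate 1 was high in Cdh23 (4.83, against 4 to 4.31). In the hippocampus, ADX AM replicate 2 was high in both Clstn2 (6.99, against 6.16 to 6.59) and Clstn3 (7.27, against 6.08 to 6.64), and ADX PM replicate 1 was low in Pcdhb19 (5.67, against 6.09 to 6.56). Units averaged over 5 regions were compared only among the 4 of the same treatment. There pADX AM replicate 1 was low in Cdh15 (5.59, against 5.78 to 5.82) and ADX AM replicate 2 in Pcdhb19 (5.7, against 5.81 to 5.83). ADX PM replicate 2 was low in Pcdh17 (9.4, against 9.5 on the other ADX units) and Sham PM replicate 1 in Pcdh8 (6.56, against 6.73 to 6.74). Units of other treatments went lower for each gene. The lowest Sham units had 5.53 for Cdh15 and 5.55 for Pcdhb19, and the lowest pADX units 9.35 for Pcdh17 and 6.48 for Pcdh8.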

How the results depend on the processing

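The count of members that differed among regions was 27 to 35 under all 23 alternatives (30 to 33 with 1 combination left out). The count highest in one region was 0 to 1 with a combination left out (0 without ADX AM replicate 2, or either PM replicate of ADX or pADX), and 0 with a floor of 32, with log2(value + 16) or with the beta-actin ratio as a covariate. The widest difference between regions turned sign on the next probe set for Cdh22 (-0.61) and Pcdhb12 (-0.32). On the values as deposited, where the median of all probe sets moved by -0.21 in ADX against Sham and 44.2% of them passed, 19 members passed, all lower; 3 passed in ADX against pADX (11.5% of all), 20 pairs within regions and 1 in the interaction. There Cdh10 (-0.23), Cdh15 (-0.14), Cdh20 (-0.1) and Pcdhb19 (-0.12) turned negative in ADX against Sham, and Cdh10 (-0.11), Cdh20 (-0.06) and Pcdh17 (-0.09) in ADX against pADX. Under every other alternative run, the comparisons over 5 regions, time of day included, gave 0 members.

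The interaction passed for 2 members with trimmed-mean scaling (Cdh12, Pcdh18), where 922 of all 31042 probe sets passed. It passed for 3 with a floor of 32 (Cdh12, Cdh6, Clstn2), where 699 of all did. Clstn2 was the 1 member with log2(value + 16) (690 of all) and with the dim filter (893 of those kept). With a combination left out it gave 0 to 4. There were 4 without Sham PM replicate 1 (Cdh10, Cdh12, Pcdh17, Pcdh9), where 2250 of all passed, and 1 without pADX PM replicate 2 (Pcdh18), where 784 did. With an array left out, the comparisons within regions gave 0 to 2 in ADX and 0 to 2 in pADX. In both, Cdh12 and Pcdh17 passed without frontal Sham PM replicate 1, where 770 of all probe sets passed in ADX and 774 in pADX. Pcdhb22, near the floor, passed in both without frontal Sham PM replicate 2, where 25 and 17 of all did. Without hippocampal pADX PM replicate 1, Cdh17 and Cdh23 passed in pADX, and without replicate 2 Cdh23, each on 1 pADX array assumed to vary like the other groups. Without both frontal Sham arrays of replicate 2, a setting chosen after seeing the data, 1 member passed in each (Pcdhb22). The cause of these moves was not tested. Replicate numbers are shared only as numbers, since deviations of same-numbered units correlated between -0.07 and 0.06 over 15 pairs of groups. A block for the replicate number left 0 members in all comparisons of treatment and time, over 5 regions and within regions (the lowest adjusted p of ADX against Sham over 5 regions was 0.226, for Cdh12). The number of arrays limits the precision, and levels at the floor are known only as upper limits.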

Other observations

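The 2 frontal cortex arrays without a treatment label had 4 members each outside the range of the 10 grouped frontal arrays, 1 of them on both arrays. That gene was Cdh8, at 6.06 and 6.05, against 5.52 to 5.98 on the grouped arrays. On the array with the higher Pcdh19 (8.22, against 7.51 to 8.05), Pcdh15 was also high at 6.05 and Cdh6 low at 5.41. On the other, Cdh12 (7.16) and Pcdh9 (10.56) lay just above and Cdh20 (5.25) below the grouped range.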
